A study of Mus musculus with 8 samples.

Results

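The collagen genes of the mouse are the 44 rows of the liver count table whose symbol is Col, a number, the letter a and a number, out of 55487 rows in all. They encode the chains of the collagen superfamily and were sorted by textbook class into 11 fibrillar genes, 8 basement membrane genes (6 of type IV and the multiplexins Col15a1 and Col18a1) and 25 others (type VI, fibril-associated, short-chain, transmembrane and unclassed). Liver RNA of 8 mice was compared by genotype. The WT group held 4 mice aged 10.7, 12.3, 11.1 and 11.8 weeks. The Ercc1 group held 2 mice with the alleles Ercc1 - and Ercc1 D, aged 15.1 and 13.7 weeks, and both were older than every other mouse. The NemoDK_Ercc1 group held 2 mice aged 11.8 weeks with the same pair of Ercc1 alleles and an allele that the labels call NEMO DK without further description. All mice were labelled female. The labels name no promoter or cell type for any allele, and each group was compared with the same 4 WT mice. ERCC1 is a subunit of a DNA repair endonuclease, and NEMO is part of the kinase complex upstream of NF-kB.

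Collagens are trimers of chains that wind into a triple helix in the endoplasmic reticulum before secretion. Fibrillar collagens, mainly types I and III, form the banded fibres of the portal tract and capsule and accumulate as scar when hepatic stellate cells and portal fibroblasts turn into matrix-producing cells. Type IV chains build the flat network of basement membranes, which the healthy sinusoid holds only in a sparse form, and the multiplexin Col18a1, the source of endostatin, is made by hepatocytes.

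The libraries held 21.6 to 27.8 M counts, of which the collagen genes took 0.128 to 0.165% in WT, 0.152 and 0.216% in the Ercc1 mice and 0.185 and 0.169% in the NemoDK_Ercc1 mice. Ercc1 itself had 51 to 115 counts in the WT libraries and 44 to 57 in the mutant libraries. Scaled by the TMM-adjusted library size (CPM) it was at 2.57 to 5.04 in WT and 1.49 to 1.87 in the mutant libraries, without overlap, and fell by 1.26 log2 units in Ercc1 (edgeR adjusted p = 0.0205) and by 1.06 in NemoDK_Ercc1 (adjusted p = 0.0410). Ikbkg, the gene of NEMO, was not lower in the NemoDK_Ercc1 mice (81.9 and 71.9 CPM, 56.8 to 68.4 in WT, log2 fold change 0.33, adjusted p = 0.0960) and rose in Ercc1 (0.53, adjusted p = 0.0167); since the labels do not describe the NEMO DK allele, its gene level does not check that label. WT library 3 went against its sex label. It had no Xist (0 counts, 9331 to 15744 elsewhere) but 3087 counts of 4 Y-linked genes, of which no other library had more than 10. Ercc1 library 2 was above Ercc1 library 1 for 17 of the 19 collagens that were called or among the 12 most abundant. For the collagens whose call changes without either library, the value without it is given. Summed hepatocyte markers (Alb, Apoa1, Ttr, Cps1, Hnf4a, Serpina1c) were the most abundant of the marker lists, while Ckm of muscle, Plin1 and Lep of fat, Cpa1 and Pnlip of acinar pancreas and Acan and Matn3 of cartilage were at 0 counts in all libraries. Each of these 4 lists had 1 of 4 genes tested. The fat list summed to 0.823 to 1.20 CPM in WT and 11.6 to 22.9 in the mutant libraries, with Cidec, a lipid droplet gene, called higher (4.27 and 4.10), and the acinar list to 33.6 to 66.1 CPM in WT and 10.4 to 14.8 in the mutant libraries, with Cela1 called lower (-1.76 and -2.0). Mylpf of muscle was not called, nor was Sox9, which is in both the cartilage list and the cholangiocyte list. The part of the cell types of these 4 lists in the collagen values was not tested.

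After the filter on low counts 33 of the 44 collagen genes were tested. In edgeR's quasi-likelihood test with Benjamini-Hochberg adjustment over 15598 genes and a threshold of 0.05, 10 collagens rose and 2 fell in Ercc1 livers against WT, where 20.8% of all tested genes were called (11.3% higher and 9.50% lower). In NemoDK_Ercc1 livers 12 rose and 1 fell, beside 18.0% of all tested genes (10.6% higher and 7.40% lower). Of these, 11 genes were called in both comparisons and 14 in either, and both comparisons use the same WT libraries. The 10 genes that rose in both were Col1a1, Col1a2 and Col3a1 of the fibrils, Col4a1, Col4a2 and Col4a5 of basement membranes, and Col6a2, Col8a1, Col16a1 and Col17a1. The median log2 fold change of the tested collagens was 0.73 in the Ercc1 mice and 0.80 in the NemoDK_Ercc1 mice, where that of all tested genes was -0.00 and 0.00. Without Ercc1 library 2 the Ercc1 count was 5 higher and 0 lower, and the 5 were Col1a1, Col3a1, Col4a1, Col4a2 and Col17a1, while 11.8% of all tested genes were called. Without WT library 4 there were 7 higher, beside 16.5% of all tested genes called. The NemoDK_Ercc1 count was 4 and 5 higher without NemoDK_Ercc1 library 1 and 2 in turn, beside 3.31 and 3.84% of all tested genes. With library size alone as scaling the split was 15 higher and 0 lower in Ercc1, where 28.6% of all tested genes were called (3765 higher and 690 lower) and their median was 0.26. With age added to the model no collagen was called in Ercc1 against WT, where 0.263% of all tested genes were, and the collagen median was 1.05. Under that model the log2 fold changes were 3.81 for Col1a1 (edgeR adjusted p = 0.109), 2.90 for Col4a1 (adjusted p = 0.0678) and 3.26 for Col4a2 (adjusted p = 0.0599), while that of Col17a1 was 1.5 (adjusted p = 0.405). The age and the genotype of the Ercc1 mice cannot be told apart.

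**Figure D1:**
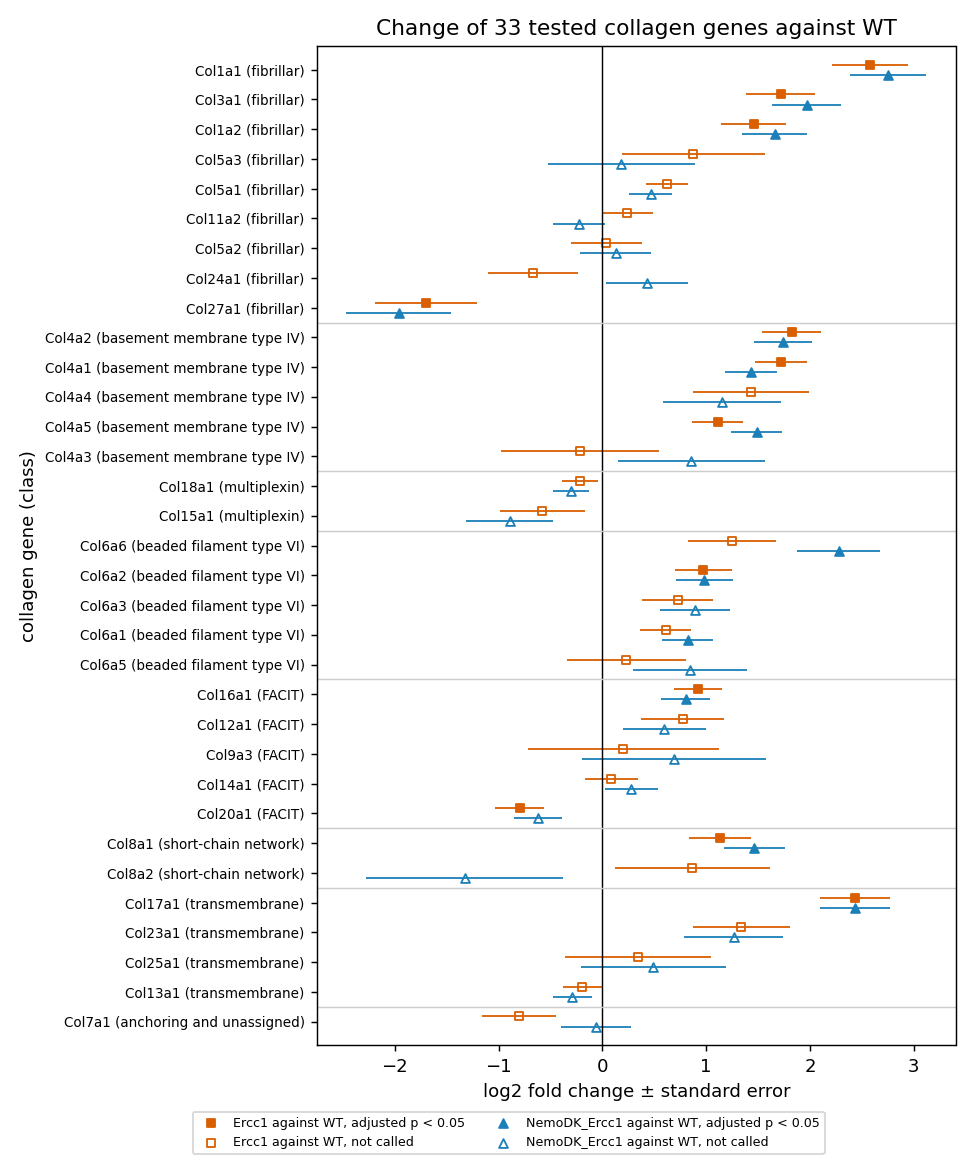
Log2 fold change (x axis, ± standard error) of each of the 33 tested collagen genes (y axis, by class) in Ercc1 livers (squares, n = 2) and NemoDK_Ercc1 livers (triangles, n = 2) against the same 4 WT livers. Filled symbols passed the adjusted threshold of 0.05. Col1a1 had the highest value in both comparisons (2.58 and 2.75) and Col27a1 the lowest (-1.70 and -1.96).

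The promoters of 5 of the genes that rose are shown as examples of different layouts, and because Col4a1 and Col4a2 share theirs. Col1a1 had no window in the promoter source. The part of promoter layout in the changes was not tested. Sequences run 5′ to 3′ along the gene's strand, from 250 bases before to 50 bases after the start site, and come from RefSeq on GRCm38.p6, where 35 of the collagen genes had 38 windows. Capitals mark matches to the CCAAT box (searched as CCAAT), the TATA box (searched as TATAAA) and the GC box (searched as GGGCGG), each on either strand, so that a match on the other strand reads as the reverse complement. Col4a1 is at chr8:11312777-11313076 on the minus strand and Col4a2 at chr8:11312555-11312854 on the plus strand. Col1a2 is at chr6:4505368-4505667 (plus), Col3a1 at chr1:45311288-45311587 (plus) and Col17a1 at chr19:47691993-47692292 (minus).
Col4a1: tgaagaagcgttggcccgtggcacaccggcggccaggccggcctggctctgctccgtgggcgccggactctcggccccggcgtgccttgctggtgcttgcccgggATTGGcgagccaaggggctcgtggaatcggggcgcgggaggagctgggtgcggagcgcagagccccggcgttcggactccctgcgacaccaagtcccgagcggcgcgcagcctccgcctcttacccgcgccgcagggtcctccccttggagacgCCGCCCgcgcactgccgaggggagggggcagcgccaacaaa
Col4a2: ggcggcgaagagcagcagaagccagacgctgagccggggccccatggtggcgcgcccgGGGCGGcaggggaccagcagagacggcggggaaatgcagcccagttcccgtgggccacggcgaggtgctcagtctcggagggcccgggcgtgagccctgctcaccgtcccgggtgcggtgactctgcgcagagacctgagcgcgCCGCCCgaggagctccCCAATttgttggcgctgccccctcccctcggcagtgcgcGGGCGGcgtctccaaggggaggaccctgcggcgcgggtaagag
Col1a2: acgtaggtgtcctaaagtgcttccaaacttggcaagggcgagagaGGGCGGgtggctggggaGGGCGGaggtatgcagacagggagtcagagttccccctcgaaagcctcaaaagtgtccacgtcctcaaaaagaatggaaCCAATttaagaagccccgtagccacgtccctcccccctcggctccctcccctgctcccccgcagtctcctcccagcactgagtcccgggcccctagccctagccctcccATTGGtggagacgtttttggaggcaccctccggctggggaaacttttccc
Col3a1: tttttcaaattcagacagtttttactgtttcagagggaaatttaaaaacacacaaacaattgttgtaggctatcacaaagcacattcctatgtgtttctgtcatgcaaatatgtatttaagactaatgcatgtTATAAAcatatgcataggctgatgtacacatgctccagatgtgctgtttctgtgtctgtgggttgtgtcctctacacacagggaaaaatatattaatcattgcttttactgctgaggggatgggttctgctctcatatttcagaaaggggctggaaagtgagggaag
Col17a1: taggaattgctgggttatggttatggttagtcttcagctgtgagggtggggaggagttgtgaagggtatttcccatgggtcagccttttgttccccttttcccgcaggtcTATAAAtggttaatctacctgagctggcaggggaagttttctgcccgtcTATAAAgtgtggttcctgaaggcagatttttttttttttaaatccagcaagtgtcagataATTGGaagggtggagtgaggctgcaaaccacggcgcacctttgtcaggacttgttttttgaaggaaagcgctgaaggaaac

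The Col4a1 and Col4a2 windows share 78 bases, since their start sites lie 21 bases apart on opposite strands and the transcripts overlap at their 5′ ends, and the last GC box of the Col4a2 window is the GC box of the Col4a1 window read from the other strand. Both windows were rich in G and C (74.0 and 73.7%) and held no TATAAA. The Col1a2 window had 2 CCAAT and 2 GGGCGG matches at 61.0% G and C. The Col3a1 window had 37.7% G and C with 1 TATAAA match and neither of the other motifs. The Col17a1 window (46.3% G and C) had 2 TATAAA matches and 1 CCAAT match. Among all 32851 windows of this length CCAAT was found in 37.4%, TATAAA in 13.6% and GGGCGG in 35.7%. Among the 38 collagen windows the counts were 13, 5 and 23. These are letter matches, not measured binding sites.

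Of 11 fibrillar genes 9 were tested, and in each mutant group 3 rose and 1 fell against WT. Over all tested genes 11.3% were called higher and 9.50% lower in Ercc1, and 10.6 and 7.40% in NemoDK_Ercc1. The class median log2 fold change was 0.62 in the Ercc1 mice and 0.43 in the NemoDK_Ercc1 mice. The 3 that rose encode the chains of types I and III. Without NemoDK_Ercc1 library 1, which leaves a lone mouse in that group, most of them lost their call in NemoDK_Ercc1. Fewer of all tested genes were called there as well. Col1a1 (chr11:94936224-94953042, plus strand), the gene of the main chain of type I collagen, had 3.78, 3.37, 3.58 and 5.56 in WT libraries 1 to 4, 12.3 and 36.5 in the Ercc1 libraries and 28.8 and 26.4 in the NemoDK_Ercc1 libraries, in CPM as above. Every mutant library lay above every WT library. Its log2 fold change was 2.58 ± 0.37 in Ercc1 (standard error, n = 2 against 4, edgeR adjusted p = 0.00283) and 2.75 ± 0.37 in NemoDK_Ercc1 (adjusted p = 0.00242), the highest among the tested collagens in both comparisons. In Ercc1 without library 2 the value was 1.59 (adjusted p = 0.0113), below that of Col17a1 (2.49).

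Col1a2 (chr6:4504814-4541544, plus), the gene of the other type I chain, had 11.0, 11.4, 11.4 and 15.7 CPM in WT, 18.9 and 49.2 in the Ercc1 mice and 37.8 and 40.5 in the NemoDK_Ercc1 mice. The groups did not overlap, but Ercc1 library 1 was close to WT library 4. It rose by 1.46 ± 0.31 log2 units in Ercc1 (edgeR adjusted p = 0.0137) and 1.66 ± 0.31 in NemoDK_Ercc1 (adjusted p = 0.00946); without Ercc1 library 2 the Ercc1 value was 0.61 with an adjusted p of 0.0960. For Col3a1 (chr1:45311538-45349706, plus), the only chain of type III, the WT livers had 21.2, 21.1, 23.1 and 27.0 CPM, the Ercc1 livers 38.3 and 114 and the NemoDK_Ercc1 livers 97.1 and 83.5. All 4 mutant libraries were above WT, and Ercc1 library 1 was the lowest of them. The rise was 1.72 ± 0.33 (edgeR adjusted p = 0.00917) and 1.97 ± 0.33 (adjusted p = 0.00630), and 0.73 (adjusted p = 0.0338) in Ercc1 without library 2. An exon stretch of 141 bases of Col3a1 overlaps the gene model Gm47302 on the same strand.

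**Figure D2:**
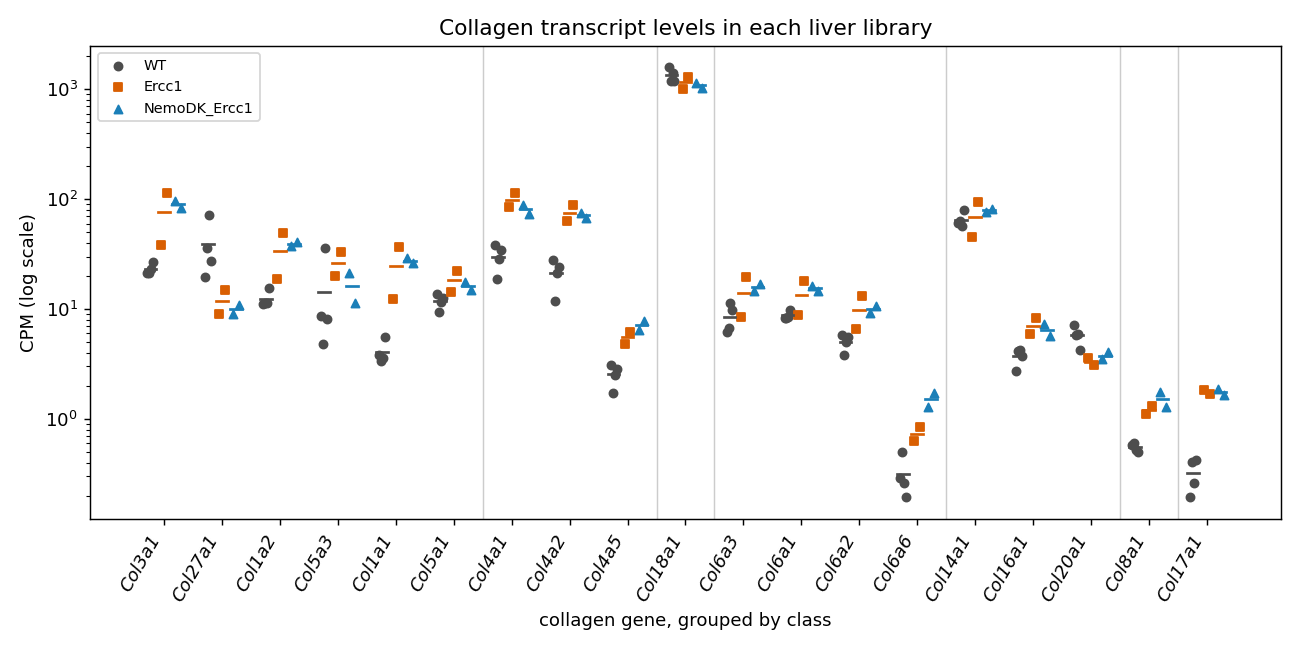
CPM (y axis, log scale) of the 14 collagen genes called in either comparison with WT and of 5 more among the 12 most abundant (x axis, grouped by class), 1 point per library and a bar at each group mean. Circles are WT (n = 4), squares Ercc1 (n = 2) and triangles NemoDK_Ercc1 (n = 2). All mutant libraries lie above the WT libraries for Col1a1, Col1a2, Col3a1, Col5a1, Col4a1, Col4a2, Col4a5, Col6a2, Col6a6, Col16a1, Col8a1 and Col17a1. Of these, Col5a1 was called in neither comparison. Col18a1 lies far above all other collagens.

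The type I chains did not keep their WT proportion. Per kilobase of exon, the ratio of Col1a1 to Col1a2 was 0.561 to 0.672 in the WT libraries, 1.24 and 1.40 in the Ercc1 mice and 1.44 and 1.23 in the NemoDK_Ercc1 mice. The mutant libraries lay together above WT, and Ercc1 library 1, with its lower level of both genes, had nearly the same ratio as NemoDK_Ercc1 library 2. The ratio of Col1a1 to Col3a1 was 0.232 to 0.308 in WT, 0.481 in both Ercc1 libraries and 0.444 and 0.473 in NemoDK_Ercc1. The absolute value of such a ratio depends on the annotated exon length, which is the same in every library. These ratios were not tested.

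The minor fibrillar genes other than Col27a1 were not called over all libraries. Col5a1 (chr2:27886425-28039514, plus) and Col5a2 (chr1:45374321-45503282, minus) encode the type V chains that seed type I fibrils. Col5a1 had 13.6, 9.32, 11.7 and 12.6 CPM in WT, 14.3 and 22.1 in the Ercc1 mice and 17.8 and 14.8 in the NemoDK_Ercc1 mice. All 4 mutant libraries were above WT by a small margin, and neither comparison passed (0.62 ± 0.21, adjusted p = 0.0624, and 0.47 ± 0.21, adjusted p = 0.150, edgeR). Without Ercc1 library 1 the Ercc1 value passed (0.90, adjusted p = 0.0446), and with age in the model the NemoDK_Ercc1 value did (0.58, adjusted p = 0.0377). For Col5a2 the log2 fold changes were 0.04 and 0.13, and its Ercc1 libraries (4.65 and 11.8 CPM) lay on either side of the WT range of 5.64 to 9.42. Col5a2 is the tail-to-tail neighbour of Col3a1, 24.6 kb away, and the ratio of Col3a1 to Col5a2 per kilobase was 2.18 to 4.68 in WT, 8.03 and 9.39 in the Ercc1 mice and 10.05 and 10.03 in the NemoDK_Ercc1 mice.

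**Figure D3:**
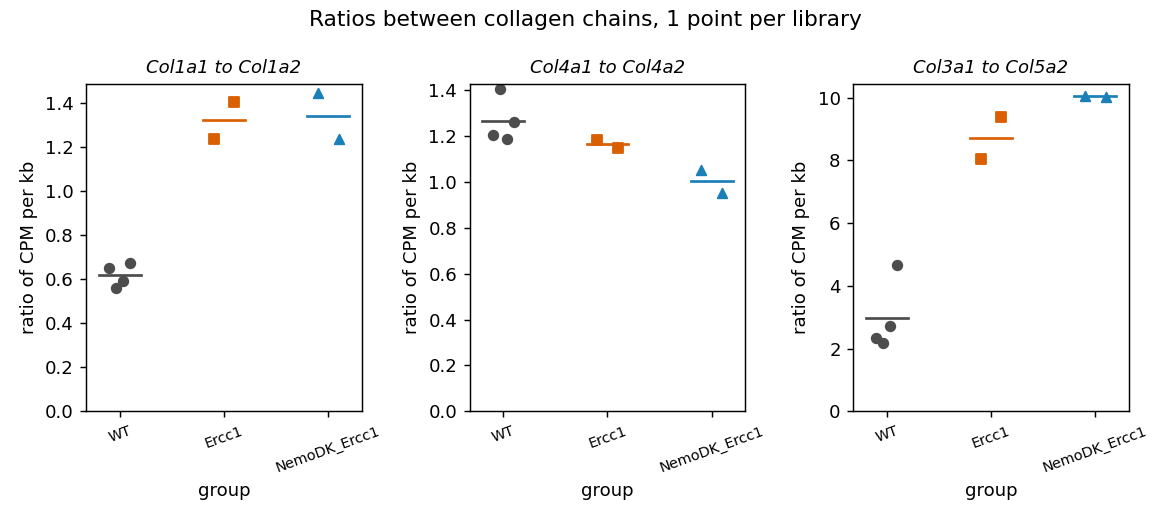
Ratio of CPM per kilobase of exon (y axes, from 0) between pairs of collagen chains, 1 point per library, by group (x axes; WT n = 4, Ercc1 n = 2, NemoDK_Ercc1 n = 2), with bars at group means. The ratio of Col1a1 to Col1a2 was 0.561 to 0.672 in WT and 1.23 to 1.44 in the mutant libraries, whereas the ratio of Col4a1 to Col4a2 was 1.19 to 1.40 in WT and 0.951 to 1.18 in the mutant libraries.

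Col5a3 and Col27a1 were both highest in WT library 3. Col5a3 (chr9:20770050-20815067, minus), a further type V chain, had 8.67, 4.84, 36.1 and 8.03 CPM in WT, 19.9 and 33.1 in the Ercc1 mice and 21.5 and 11.2 in the NemoDK_Ercc1 mice. WT library 3 was the highest of all 8 libraries, and the other WT libraries were below every mutant library. The log2 fold changes were 0.88 ± 0.69 (edgeR adjusted p = 0.399) and 0.18 ± 0.71 (adjusted p = 0.884) with it, and 1.89 (adjusted p = 0.00624) and 1.18 (adjusted p = 0.0423) without it. Col27a1 (chr4:63214004-63334991, plus), a fibrillar gene known from cartilage, had 19.7, 36.1, 72.1 and 27.3 CPM in WT, 9.09 and 14.8 in the Ercc1 mice and 8.97 and 11.0 in the NemoDK_Ercc1 mice. It was lower in every mutant library than in any WT library. Col27a1 fell by 1.70 ± 0.49 log2 units in Ercc1 (edgeR adjusted p = 0.0418) and by 1.96 ± 0.50 in NemoDK_Ercc1 (adjusted p = 0.0303), and without WT library 3 the values were -1.20 (adjusted p = 0.0187) and -1.48 (adjusted p = 0.0102). In Ercc1 it lost its call without Ercc1 library 2 (-2.09, adjusted p = 0.0988). The Ercc1 call was also lost under 9 of the other 17 alternatives.

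The remaining fibrillar genes were scarce. Col11a2 and Col24a1 were tested and not called, with 1.84 to 3.12 and 0.339 to 0.811 CPM. Col2a1, the cartilage collagen, had 2 counts in all and Col11a1 had 6, and neither was tested.

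Of 8 basement membrane genes 7 were tested, and the same number rose in both comparisons: 3 higher and 0 lower, all 3 of type IV. Over all tested genes 11.3% were called higher in Ercc1 and 10.6% in NemoDK_Ercc1. The class median was 1.11 in the Ercc1 mice and 1.15 in the NemoDK_Ercc1 mice. Within type IV alone 5 of 6 genes were tested and the median was 1.43 in both. Without NemoDK_Ercc1 library 1, which leaves a lone mouse in that group, most of the 3 lost their call in NemoDK_Ercc1. Fewer of all tested genes were called there as well. Col4a1 (chr8:11198423-11312826, minus) and Col4a2 (chr8:11312805-11449287, plus) encode the chains of the ubiquitous type IV network. Col4a1 had 38.2, 18.7, 28.6 and 34.2 CPM in WT, 84.4 and 113 in the Ercc1 mice and 88.8 and 72.6 in the NemoDK_Ercc1 mice. Col4a2 had 28.1, 11.8, 21.4 and 24.1 CPM in WT, 63.3 and 87.8 in the Ercc1 mice and 74.8 and 67.7 in the NemoDK_Ercc1 mice. Both genes were lowest in WT library 2, and every mutant library was far above the highest WT library.

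The rise of Col4a1 was 1.72 ± 0.25 log2 units in Ercc1 (edgeR adjusted p = 0.00298) and 1.43 ± 0.25 in NemoDK_Ercc1 (adjusted p = 0.00719). For Col4a2 it was 1.82 ± 0.28 (adjusted p = 0.00365) and 1.74 ± 0.28 (adjusted p = 0.00535). Unlike the type I pair, these chains moved nearly in step: their ratio per kilobase was 1.19 to 1.40 in WT, 1.18 and 1.14 in the Ercc1 mice and 1.05 and 0.951 in the NemoDK_Ercc1 mice. The mutant values were lower than WT by a small amount, and the ratio was not tested. The annotated transcripts overlap head to head by 22 bases. Sinusoidal endothelial markers, from a cell type that also makes type IV chains, summed to 268 to 289 CPM in WT, 205 to 254 in the Ercc1 mice and 239 to 270 in the NemoDK_Ercc1 mice. Of the 7, Lyve1 rose and Stab2 fell in both comparisons and Fcgr2b fell in Ercc1. Of all tested genes 20.8% were called in Ercc1 and 18.0% in NemoDK_Ercc1. The part of these markers in the type IV values was not tested.

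Col4a5 (chrX:141475385-141689234, plus), whose chain belongs to the specialised networks best known from kidney, had 3.10, 1.71, 2.49 and 2.86 CPM in WT, 4.84 and 6.18 in the Ercc1 mice and 6.44 and 7.84 in the NemoDK_Ercc1 mice. The groups did not overlap. It rose by 1.11 ± 0.25 (edgeR adjusted p = 0.0152) and 1.49 ± 0.24 (adjusted p = 0.00548). Without Ercc1 library 2 the Ercc1 value was 0.92 with an adjusted p of 0.10. Its head-to-head neighbour Col4a6, 1308 bases away, had 61 counts over the 8 libraries, 28 of them in Ercc1 library 2, and was not tested. Col4a3 and Col4a4, another head-to-head pair with 71 bases between them, were at 0.232 to 2.04 CPM and were not called.

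The multiplexins had negative values that did not pass the test. Col18a1 (chr10:77052178-77166548, minus) had 1580, 1180, 1392 and 1197 CPM in WT, 1008 and 1298 in the Ercc1 mice and 1138 and 1035 in the NemoDK_Ercc1 mice. Both NemoDK_Ercc1 libraries were below all WT libraries, and the Ercc1 libraries overlapped WT. The log2 fold changes were -0.21 ± 0.17 (edgeR adjusted p = 0.415) and -0.30 ± 0.18 (adjusted p = 0.263). Hepatocyte markers were lower too: 4 of 6 fell in Ercc1 and 3 of 6 in NemoDK_Ercc1, beside 9.50 and 7.40% of all tested genes. Their summed level was 99503 to 128533 CPM in WT, 77092 to 80762 in the Ercc1 mice and 75950 to 77036 in the NemoDK_Ercc1 mice. The part of these markers in the Col18a1 values was not tested. In bulk tissue fewer cells of a type and less RNA per cell cannot be told apart.

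Col15a1, the basement membrane and vessel multiplexin, had 14.7, 12.7, 4.72 and 14.4 CPM in WT, 8.03 and 7.57 in the Ercc1 mice and 4.86 and 7.71 in the NemoDK_Ercc1 mice. WT library 3 lay below every mutant library, though close to NemoDK_Ercc1 library 1, and the other WT libraries were above every mutant library. The values were -0.58 (edgeR adjusted p = 0.349) and -0.89 (adjusted p = 0.172) over all libraries, and -0.82 (adjusted p = 0.0239) and -1.16 (adjusted p = 0.00777) without WT library 3.

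Type VI chains form beaded filaments around cells and link fibrils to basement membranes. Of 6 genes 5 were tested, and 1 rose in Ercc1 and 3 in NemoDK_Ercc1, beside 11.3 and 10.6% of all tested genes called higher. All 5 had positive log2 fold changes against WT, beside 49.9 and 50.4% of all tested genes. Without WT library 4 no type VI gene was called in Ercc1, beside 16.5% of all tested genes. In NemoDK_Ercc1 1 gene was called without any one of the WT libraries, beside 13.4 to 19.4% of all tested genes. The Ercc1 call was also lost without Ercc1 library 2 or either NemoDK_Ercc1 library. Calls in NemoDK_Ercc1 were lost without either of its own libraries. Those fits leave a lone mouse in a group, and fewer of all tested genes were called in them as well. Col6a2 (chr10:76595762-76623630, minus) had 5.81, 3.78, 4.98 and 5.52 CPM in WT, 6.56 and 13.1 in the Ercc1 mice and 9.24 and 10.6 in the NemoDK_Ercc1 mice, with Ercc1 library 1 close to WT. It rose by 0.97 ± 0.27 (edgeR adjusted p = 0.0381) and 0.98 ± 0.27 (adjusted p = 0.0409), and its Ercc1 value without library 2 was 0.38 (adjusted p = 0.366). Without WT library 3 the NemoDK_Ercc1 value was 0.97 (edgeR adjusted p = 0.0521). The Ercc1 call of Col6a2 was lost under 8 of 18 alternatives and its NemoDK_Ercc1 call under 6 of 18.

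Col6a1 (chr10:76708792-76726168, minus), 85.2 kb from Col6a2, had 8.33, 8.36, 8.38 and 9.84 CPM in WT, 8.76 and 17.9 in the Ercc1 mice and 16.2 and 14.7 in the NemoDK_Ercc1 mice. Ercc1 library 1 was within the WT range and the other mutant libraries were above it. Col6a1 rose in NemoDK_Ercc1 (0.82 ± 0.24, edgeR adjusted p = 0.0489) and had a value of 0.61 ± 0.24 in Ercc1 (adjusted p = 0.111). Its NemoDK_Ercc1 call was lost under 7 of 18 alternatives. The NemoDK_Ercc1 value was 0.80 (adjusted p = 0.0628) without WT library 3, and the Ercc1 value 1.03 (adjusted p = 0.0137) without Ercc1 library 1. Col6a3 (chr1:90765923-90843971, minus) had 6.15, 6.70, 11.3 and 9.84 CPM in WT, 8.50 and 19.7 in the Ercc1 mice and 14.6 and 17 in the NemoDK_Ercc1 mice. Neither value passed (0.73 ± 0.34, adjusted p = 0.165, and 0.89 ± 0.34, adjusted p = 0.103).

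Col6a6 (chr9:105687809-105828160, minus), a long alternative chain of the family, was rare, with 0.291, 0.504, 0.262 and 0.193 CPM in WT, 0.623 and 0.849 in the Ercc1 mice and 1.28 and 1.74 in the NemoDK_Ercc1 mice. The groups formed an order with no overlap. It rose by 2.28 ± 0.40 in NemoDK_Ercc1 (edgeR adjusted p = 0.00725), and its value in Ercc1 was 1.25 ± 0.42 (adjusted p = 0.0678). The difference between the mutant groups was 1.02 with a 95% interval of 0.02 to 2.03 and did not pass the adjustment (adjusted p = 0.730). Col6a5 was at 0.218 to 1.48 CPM and not called, and Col6a4 had 5 counts in all.

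Fibril-associated collagens sit on the surface of fibrils. Col14a1 (chr15:55307750-55520803, plus) was the most abundant of them, with 60.7, 63.8, 56.5 and 79.7 CPM in WT, 45.2 and 93.2 in the Ercc1 mice and 77.0 and 81.0 in the NemoDK_Ercc1 mice. The Ercc1 libraries were the lowest and the highest of all 8. Its values were 0.09 ± 0.26 (edgeR adjusted p = 0.839) and 0.28 ± 0.26 (adjusted p = 0.487). Col16a1 (chr4:130047840-130099283, plus) had 2.71, 4.18, 4.28 and 3.74 CPM in WT, 5.90 and 8.21 in the Ercc1 mice and 7.36 and 5.63 in the NemoDK_Ercc1 mice. All mutant libraries were above WT. It rose by 0.92 ± 0.23 (edgeR adjusted p = 0.0262) and 0.80 ± 0.24 (adjusted p = 0.0479). Without Ercc1 library 2 the values were 0.66 in Ercc1 and 0.80 in NemoDK_Ercc1. The Ercc1 call was lost under 4 of 18 alternatives and the NemoDK_Ercc1 call under 8 of 18. Both were lost with age in the model and without WT library 4.

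Col20a1 (chr2:180986535-181018363, plus) had 7.12, 5.84, 5.98 and 4.21 CPM in WT, 3.56 and 3.09 in the Ercc1 mice and 3.48 and 4.02 in the NemoDK_Ercc1 mice. Every mutant library was below every WT library, although WT library 4 was close. It fell by 0.80 ± 0.23 in Ercc1 (edgeR adjusted p = 0.0433) and was at -0.62 ± 0.23 in NemoDK_Ercc1 (adjusted p = 0.0972). The Ercc1 call was lost under 12 of 18 alternatives, among them those without Ercc1 library 2 (-0.70, adjusted p = 0.188) and without WT library 3 (-0.76, adjusted p = 0.0697). Exons of Col20a1 overlap the gene model BX649560.1 on the same strand over 79 bases. Col12a1 (1.14 to 4.34 CPM) and Col9a3 (0 to 0.705 CPM) were not called.

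Col22a1, a fibril-associated collagen known from tissue junctions, failed the filter and had at most 1 count in any WT library. It had 0, 1, 0 and 0 counts in WT, 8 and 10 in the Ercc1 mice and 8 and 8 in the NemoDK_Ercc1 mice. Per unit of library size that is a ratio to WT of 28.3 in Ercc1 (95% counting interval 4.47 to 1180) and 26.5 in NemoDK_Ercc1 (4.11 to 1109), intervals that cover counting error only. Col9a1 had 5 counts, all in NemoDK_Ercc1 library 1, and Col9a2 had 2. Col19a1, Col10a1 and Col26a1 had 0 counts in all libraries, and Col28a1 had 7.

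Col17a1 (chr19:47646344-47692094, minus), the transmembrane collagen of epithelial hemidesmosomes, was low and rose evenly. Its levels were 0.194, 0.403, 0.262 and 0.425 CPM in WT, 1.83 and 1.70 in the Ercc1 mice and 1.87 and 1.65 in the NemoDK_Ercc1 mice. The mutant libraries were nearly equal to each other and all above WT. The rise was 2.43 ± 0.34 in both comparisons (edgeR adjusted p = 0.00245 and 0.00280). Markers of cholangiocytes, the epithelium of the bile duct, had summed levels of 29.5 to 34.5 CPM in WT, 42.8 to 48.6 in the Ercc1 mice and 56.3 to 61.9 in the NemoDK_Ercc1 mice. Of these markers 1 of 6 (Spp1) was called in each comparison, beside 20.8 and 18.0% of all tested genes, and Krt19, Krt7 and Epcam were not. Their part in the Col17a1 values was not tested. Of the other transmembrane genes Col13a1 (3.39 to 5.19 CPM), Col23a1 (0.0969 to 0.586 CPM) and Col25a1 (0.154 to 1.25 CPM) were not called. Col23a1 came closest, with all mutant libraries above WT and edgeR adjusted p of 0.0748 in Ercc1 and 0.0987 in NemoDK_Ercc1.

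Col8a1 (chr16:57624258-57754737, minus), a short-chain collagen of vessel walls, had 0.581, 0.604, 0.524 and 0.502 CPM in WT, 1.10 and 1.32 in the Ercc1 mice and 1.78 and 1.27 in the NemoDK_Ercc1 mice. The mutant libraries were all above the narrow WT range. It rose by 1.13 ± 0.30 (edgeR adjusted p = 0.0291) and 1.46 ± 0.29 (adjusted p = 0.0118), and without Ercc1 library 2 the Ercc1 value was 0.99. The Ercc1 call was lost under 7 of 18 alternatives and the NemoDK_Ercc1 call under 2 of 18. Markers of vascular smooth muscle summed to 10.9 to 12.1 CPM in WT, 15.3 to 16.1 in the Ercc1 mice and 14.0 to 14.8 in the NemoDK_Ercc1 mice. Of the 2 tested markers Smtn rose and Myh11 fell in each comparison, beside 20.8 and 18.0% of all tested genes called. The part of these markers in the Col8a1 values was not tested. Col8a2, the partner of Col8a1 (0.0424 to 1.05 CPM), and the anchoring fibril gene Col7a1 (0.440 to 1.31 CPM) were not called.

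Levels of different genes were compared per kilobase of merged exons. Col18a1 ranked first in all 3 groups, with a mean of 190.5 CPM per kilobase in WT, 164 in the Ercc1 mice and 155 in the NemoDK_Ercc1 mice, and it made up 80.9 to 86.0% of the collagen sum in WT, 74.0 and 68.0% in the Ercc1 mice and 69.5 and 69.3% in the NemoDK_Ercc1 mice. The sum over all collagens differed little between the groups, at 228 ± 27.8 (SD, n = 4), 233 ± 55.2 (n = 2) and 223 ± 14.4 (n = 2) CPM per kilobase. Without Col18a1 the sum was 37.3 ± 3.88 in WT, 68.7 ± 26.0 in Ercc1 and 68.2 ± 4.01 in NemoDK_Ercc1, and its lowest mutant value, 50.3 in Ercc1 library 1, was above the highest WT value, 40.4.

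The type IV sum was 7.76 ± 2.19 CPM per kilobase in WT, 25.7 ± 5.67 in Ercc1 and 22.9 ± 2.03 in NemoDK_Ercc1, with no overlap. The fibrillar sum was 11.7 ± 3.77, 22.5 ± 12.5 and 23.0 ± 2.39, and Ercc1 library 1 (13.6) lay below WT library 3 (17.3). Of the sum without Col18a1, type IV took 15.0 to 27.1% in WT and 32.9 to 43.2% in the mutant libraries, and the fibril-associated class 24.5 to 34.7% in WT and 16.8 to 20.8% in the mutant libraries. The fibrillar share overlapped, with 25.3 to 42.7% in WT and 27.0 to 36.0% in the mutant libraries. Among single genes Col1a1 moved from rank 16 in WT to rank 7 in the Ercc1 mice and 6 in the NemoDK_Ercc1 mice, and Col27a1 from rank 5 to 15 and 18.

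**Figure D4:**
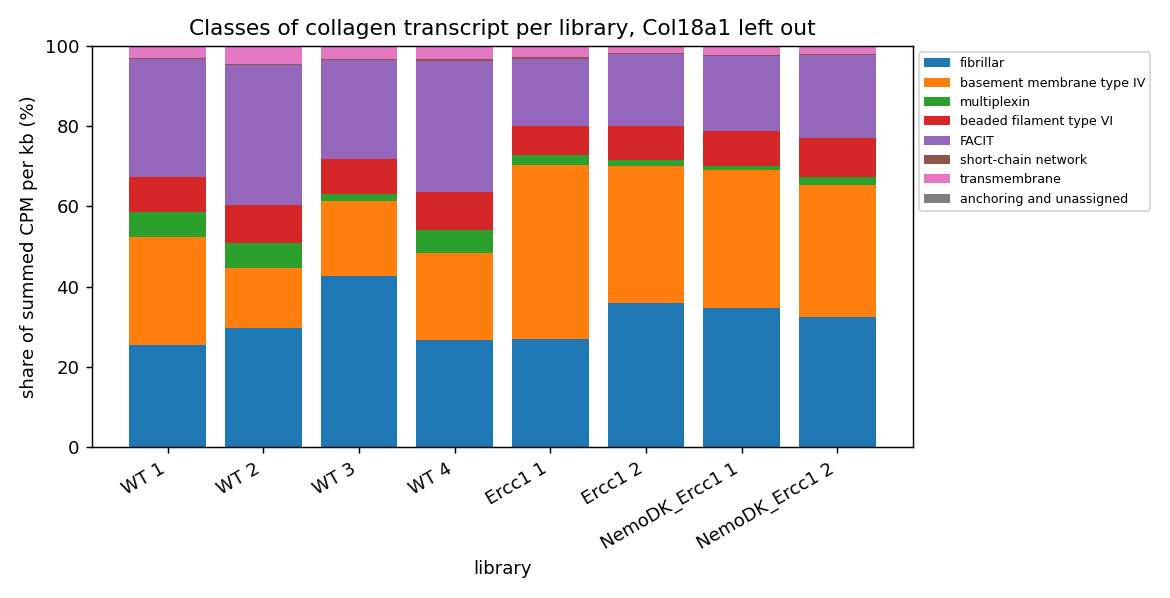
Share of each collagen class (y axis, percent of the summed CPM per kilobase of all collagens other than Col18a1) in each of the 8 libraries (x axis). FACIT is the fibril-associated class. Type IV took 15.0 to 27.1% in the 4 WT libraries and 32.9 to 43.2% in the 4 mutant libraries, while the fibrillar share was highest in WT library 3 (42.7%).

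The Ercc1 livers differed from each other to an unequal degree across the collagens. The ratio of Ercc1 library 2 to library 1 was 2.97 for Col3a1, 2.96 for Col1a1 and 2.61 for Col1a2, 2.0 to 2.31 for Col6a1, Col6a2 and Col6a3, and 2.06 for Col14a1. It was 1.28 to 1.39 for Col4a1, Col4a2 and Col4a5, 1.29 for Col18a1, 0.943 for Col15a1, 0.926 for Col17a1 and 0.869 for Col20a1. The classes overlapped: over all tested members the ratio ran from 0.774 to 2.97 in the 9 fibrillar genes (median 1.66), from 1.05 to 2.65 in the 5 type IV genes (median 1.34), from 0.630 to 2.31 in the 5 type VI genes (median 2.0) and from 0.589 to 2.06 in the 5 fibril-associated genes (median 1.01). Fibroblast and stellate cell markers spread likewise, from 2.06 for Lum and 1.97 for Pdgfrb to 1.04 for Des, 1.01 for Acta2 and 0.902 for Lrat. The summed markers were 354 CPM in Ercc1 library 1 and 524 in library 2, against 428 to 512 in WT and 480 to 497 in NemoDK_Ercc1. Of the 12 markers, Lum rose and Ecm1 fell in Ercc1 and Lum rose in NemoDK_Ercc1, beside 20.8 and 18.0% of all tested genes called. Lrat, Des, Acta2 and Dcn were not called. Mesothelial markers were 3.56 and 13.7 CPM in the Ercc1 libraries (0.604 to 7.26 in WT and 5.03 and 7.88 in NemoDK_Ercc1). The part of either cell type in the difference between the libraries was not tested.

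**Figure D5:**
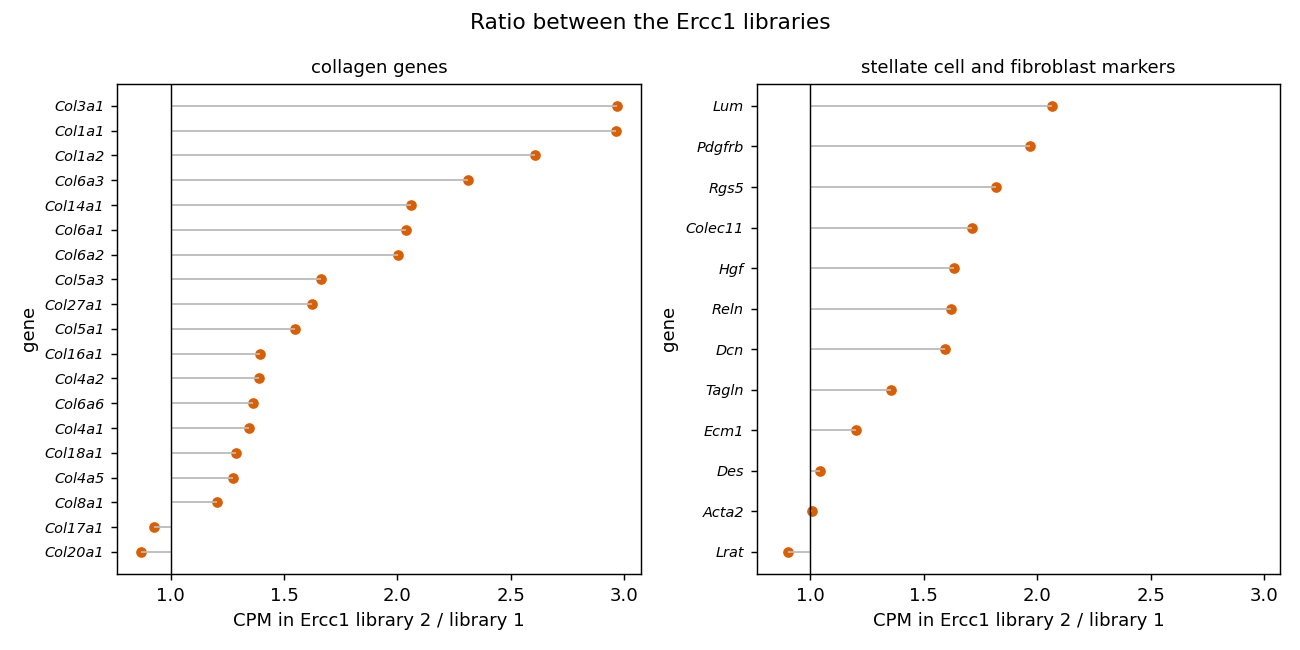
Ratio of CPM in Ercc1 library 2 to Ercc1 library 1 (x axes) for the 19 collagen genes called or among the 12 most abundant (left) and for 12 stellate cell and fibroblast markers (right), genes on the y axes; the vertical line marks a ratio of 1. The type I and III genes had ratios of 2.61 to 2.97, and the type IV genes 1.28 to 1.39.

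Between NemoDK_Ercc1 and Ercc1 livers edgeR called 0 of the 33 tested collagens and 0% of all tested genes. DESeq2 called 0 collagens beside 0.442% of all tested genes, and limma-voom 0 collagens and 0 genes. At an unadjusted p under 0.05 there were 2 collagens (6.06%), both higher in NemoDK_Ercc1, Col6a6 and Col24a1, beside 6.81% of all tested genes, so the share is near the background. The median difference over the tested collagens was 0.09, beside 0.02 over all tested genes. The comparison of 2 with 2 mice leaves wide intervals: the difference was 0.18 for Col1a1 (95% interval -0.79 to 1.14), 0.25 for Col3a1 (-0.65 to 1.15), -0.29 for Col4a1 (-0.97 to 0.39), -0.08 for Col4a2 (-0.85 to 0.68) and 0.00 for Col17a1 (-0.80 to 0.80). Differences of up to about the size of the interval bounds cannot be told from none at this number of mice. The mutant groups also differed in age.

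Genes that act on collagen were read from the same fit in 6 lists. With age in the model none of the 6 had a call in Ercc1 against WT, where 0.263% of all tested genes did. The shares called are set beside the 20.8% (Ercc1) and 18.0% (NemoDK_Ercc1) of all tested genes, and lists of this size move by several percentage points with 1 gene. Those shares do not apply to fits with a library left out. Without 1 WT library, 16.5 to 21.9% of all tested genes were called in Ercc1 and 13.4 to 19.4% in NemoDK_Ercc1. Leaving out a mutant library leaves a lone mouse in its group, and fewer of all tested genes were then called in both comparisons with WT. Of 21 tested genes of chain synthesis and folding, 3 rose and 0 fell in each comparison (14.3%), with list medians of 0.34 and 0.13. Of all tested genes 11.3% were called higher in Ercc1 and 10.6% in NemoDK_Ercc1. Fkbp10, a prolyl isomerase of the collagen chaperone complex, rose by 1.92 ± 0.28 in Ercc1 (edgeR adjusted p = 0.00314) and 1.97 ± 0.28 in NemoDK_Ercc1 (adjusted p = 0.00334). Its levels were 0.656 to 0.907 CPM in WT, 2.13 and 3.60 in the Ercc1 mice and 3.12 and 2.80 in the NemoDK_Ercc1 mice, with no overlap. Serpinh1, the collagen chaperone HSP47, rose by 0.87 and 0.64. The other was Colgalt1, a collagen galactosyltransferase, in Ercc1 (0.38) and Crtap, part of the prolyl 3-hydroxylation complex, in NemoDK_Ercc1 (0.60). The count was 1 higher in Ercc1 without Ercc1 library 1, and 1 higher in NemoDK_Ercc1 without either of its libraries.

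Of 11 tested genes of propeptide cleavage and crosslinking, 3 rose and 1 fell in Ercc1 (36.4%), and 1 rose and 1 fell in NemoDK_Ercc1 (18.2%). Loxl2, a lysyl oxidase that crosslinks type I and type IV collagen, rose by 1.65 ± 0.31 (edgeR adjusted p = 0.00768) and 1.79 ± 0.31 (adjusted p = 0.00638). Bmp1, the procollagen C-proteinase, fell by 0.73 ± 0.13 (adjusted p = 0.00712) and by 0.90 ± 0.13 (adjusted p = 0.00393). Bmp1 was the exception in its list: in each comparison 10 of the 11 tested genes had positive values, with list medians of 0.65 and 0.62. Tgm2 (1.06), a transglutaminase, and Loxl4 (2.25) rose in Ercc1. The count of higher genes in NemoDK_Ercc1 was 4 without either Ercc1 library and 0 without either NemoDK_Ercc1 library.

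Of 16 fibril-associated proteins 4 rose and 1 fell in each comparison (31.2%), with medians of 0.77 and 1.08. Lum (lumican), Postn (periostin) and Tnc (tenascin C) rose in both, Postn by 1.13 and 1.71. Thbs1 rose in Ercc1 and Sparc in NemoDK_Ercc1, and Fn1 (fibronectin), which hepatocytes also secrete, fell by 0.53 and by 0.59. Without Ercc1 library 2 none of the 16 was called in Ercc1, and 9 were higher in NemoDK_Ercc1 without either Ercc1 library. Without WT library 1, 2 or 4 the Ercc1 count was 2, 2 and 1 higher. Without NemoDK_Ercc1 library 1 and 2 in turn, 0 and 1 were higher in NemoDK_Ercc1.

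Among 17 basement membrane partners, 4 rose and 1 fell in Ercc1 (29.4%) and 3 rose and 1 fell in NemoDK_Ercc1 (23.5%). Nid1, which links laminin to type IV collagen, had 13.2 to 18.5 CPM in WT, 37.6 and 41.7 in the Ercc1 mice and 29.1 and 30.8 in the NemoDK_Ercc1 mice, all above WT. It rose by 1.26 ± 0.14 (edgeR adjusted p = 0.00111) and 0.85 ± 0.14 (adjusted p = 0.00624). Lama5, a laminin chain, rose by 1.21 and 1.40, and Smoc2, a matricellular protein, by 2.01 and 2.14, while its paralog Smoc1 fell by 1.13 and by 1.03.

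Of 11 tested collagen receptors and uptake genes, 3 rose in each comparison and 2 fell in Ercc1 (45.5% called in Ercc1 and 27.3% in NemoDK_Ercc1). Ddr1, a receptor kinase for collagen, rose by 2.59 ± 0.27 (edgeR adjusted p = 0.000837) and 2.24 ± 0.27 (adjusted p = 0.00172). The uptake genes Mrc2 (1.68 and 1.40) and Mfge8 (1.48 and 1.38) rose too, and the integrins Itga1 (-0.57) and Itga10 (-1.04) fell in Ercc1. Without Ercc1 library 2 the count in Ercc1 was again 3 higher and 2 lower, but it was 0 lower without WT library 4 or Ercc1 library 1.

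Of 19 genes of TGF-beta and PDGF signalling, which drives collagen synthesis in stellate cells, 6 rose and 1 fell in Ercc1 (36.8%) and 5 rose and 1 fell in NemoDK_Ercc1 (31.6%). The ligand Pdgfa rose by 1.89 ± 0.22 (edgeR adjusted p = 0.00123) and 1.90 ± 0.22 (adjusted p = 0.00129) and Pdgfb by 1.48 and 1.26. The receptor Tgfbr2 rose by 0.94 and 1.18, and the inhibitory Smad7 by 0.55 and 1.19. Smad4, the common mediator, fell by 0.41 and by 0.48. Without Ercc1 library 2 there were 2 higher and 0 lower calls of this list in Ercc1, and without either NemoDK_Ercc1 library 3 higher and 0 lower calls in NemoDK_Ercc1. Macrophage markers, a cell type that also makes PDGF, were higher: 4 of 6 (Cd68, Lyz2, Gpnmb, Trem2) rose in each comparison, beside 11.3 and 10.6% of all tested genes. Their summed level was 145 to 262 CPM in WT, 230 to 380 in the Ercc1 mice and 337 to 375 in the NemoDK_Ercc1 mice. The part of these markers in the values of this list was not tested.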

How the data were processed

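The authors deposited 1 table of raw counts per gene for 8 liver libraries made with a stranded total RNA kit, per the labels' protocols. FastQC, HISAT2 2.1.0, featureCounts and GRCm38 are named in the submitters' processing notes; the annotation release, strand setting and handling of multiply aligned reads are not given in the sources used here, so exons shared between genes are uncertain.

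The deposited counts were tested in R 4.3.3 with edgeR 4.0.16 (filterByExpr, TMM, 1 mean per group over all 8 libraries, quasi-likelihood F test, Benjamini-Hochberg over 15598 genes, threshold 0.05; 5 residual and 3.67 prior degrees of freedom, biological coefficient of variation 0.227). The standard error of a log2 fold change is its size over the root of its F statistic. Alternatives used DESeq2 1.42.0 and limma 3.58.1 (voom), other scaling, filters and thresholds, age as a covariate, only the groups compared, and each library left out. Genes and exon lengths came from GENCODE M21 on GRCm38, promoters from RefSeq, and figures from Python 3.11.15 with matplotlib 3.10.9.

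Every collagen row is accounted for. Values in each library are given for members called in any comparison and for the 12 with the highest mean CPM, and up to 4 genes of smallest p per pathway list and comparison were eligible for naming. Col15a1, Col22a1, Fn1 and Smad4 fall outside this rule and were chosen after their values were seen. Col5a2 and its ratio to Col3a1 fall outside it too. The members, classes and lists were chosen with earlier results of these data known. On simulated counts for Ercc1 against WT (15244 genes), 87% of 100 genes changed 4-fold and 38% of 100 changed 2-fold were called. The changed genes were drawn only from those above a floor on mean CPM. Some tested collagens, such as Col6a6 and Col8a1, lay below that floor, and these rates do not cover them. The series design calls the mice independent biological replicates.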

Additional observations from a re-analysis of the deposited data

Results flagged for a closer look

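In 4 of the 33 tested collagen genes 1 WT library stood far from the other 3 by Dixon's criterion at the 95% level, which chance meets in about 1 of 20 groups. Col1a2 had 15.7 CPM in WT library 4, where the next WT library had 11.4. Col6a1 had 9.84 CPM in WT library 4 (next 8.38). Col5a3 had 36.1 CPM in WT library 3 (next 8.67), and Col7a1 had 1.31 CPM in WT library 3 (next 0.907). WT library 3 is the one whose Xist and Y-linked counts go against its female label.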

How the results depend on the processing

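No paired analysis was possible because the library numbers in the labels are not shared between groups. The comparison of NemoDK_Ercc1 with Ercc1 gave 0 called collagens under every alternative run. The count of collagens higher in Ercc1 (10) was 0 with age as a covariate and 5 at a threshold of 0.01. It was 7 to 11 when 1 WT library was left out (7 without WT library 4). Of all fits with a library left out, it was lowest without Ercc1 library 2. Library size alone as scaling gave 15 higher and 0 lower, and it moved the median of all genes to 0.26 in Ercc1 and 0.27 in NemoDK_Ercc1. The lower calls in Ercc1 (2) became 1 with upper-quartile factors or robust empirical Bayes and 0 with limma-voom, age, only the 2 groups compared or a threshold of 0.01, and 0 to 2 when 1 library was left out. The count of collagens higher in NemoDK_Ercc1 (12) was 15 with library size alone and 9 to 11 when 1 WT library was left out. It was lower still without either library of NemoDK_Ercc1. Its 1 lower call became 0 with robust empirical Bayes or a threshold of 0.01 and 2 at a threshold of 0.1, and 0 to 2 when 1 library was left out. A library left out of a group of 2 leaves a lone mouse whose spread is assumed to be that of the other groups. No call reversed its direction, and the causes of these shifts were not tested. The counts with a library left out include members not called over all libraries, such as Col5a3 without WT library 3. Counts by class and pathway list under these alternatives were added after seeing the data. Genes with few counts, such as Col6a6 and Col17a1, are limited by depth, and groups of 2 mice limit all comparisons.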
